A study of Homo sapiens with 4 samples.

Results

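Transcripts of 10 genes for secreted cytokines, among 56655 gene symbols counted, were followed by poly(A) RNA sequencing in the established human cell line OVCAR5, labelled as high grade serous ovarian cancer from ascites. They are IL6, LIF and IL11 of the interleukin-6 family, IL1A and IL1B of the interleukin-1 family, the colony-stimulating factors CSF1, CSF2 and CSF3, and IL32 and IL23A. Rows were taken by gene symbol, and the 10 genes were chosen on earlier values of this same comparison, in which inflammatory transcripts had been seen to fall. Their levels and fold changes are therefore a description, no p-value is given for any of them, and how many passed the threshold is counted below only beside the share of all genes that did. One group carried a short hairpin RNA against the transcription factor gene FOXK2 (shFOXK2, n = 2 libraries), and the other a nontargeting hairpin (shCtrl, n = 2 libraries). In both, the hairpin was delivered by lentivirus and cells were selected with puromycin, so each group is a selected population of transduced cells. The shFOXK2 libraries came from 1 hairpin, named shFOXK2-2 in the study, so effects of that hairpin on other transcripts cannot be told apart from those of FOXK2.

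Cytokines are small secreted proteins that act on nearby cells through surface receptors. Many of these genes are nearly silent at rest and are switched on within hours by the transcription factors NF-κB, AP-1 and C/EBP. Their transcripts are often short-lived because AU-rich stretches in the 3′ untranslated region (UTR) recruit decay factors. In ovarian cancer, tumor cells are a known source of interleukin-6, of LIF and of the colony-stimulating factors, which act on the cancer cells themselves and on macrophages and neutrophils.

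Library totals ran from 14284005 to 21950873 counts, and 3 counts corresponded to between 0.134 and 0.211 CPM (counts relative to library size, scaled here by the trimmed mean of M values, TMM). FOXK2 itself had 1796 and 1499 counts in shCtrl against 1086 and 1084 in shFOXK2. As CPM this was 86.9 ± 9.1 against 67.9 ± 11.9 (SD, n = 2 each). For FOXK2, edgeR gave −0.36 on the log2 scale (SE 0.25, adjusted p-value 0.257), which did not pass the threshold of 0.05. Under an offset on the A content of transcripts it was −0.04 and under one on GC content −0.07. These offsets also moved the median of all genes up by 0.25 and 0.18. Separately, the study reported lower FOXK2 mRNA by qRT-PCR and lower FOXK2 protein by western blot in OVCAR5 cells carrying its FOXK2 hairpins. Markers of other cells were checked, since macrophages and fibroblasts also make these cytokines. Of 12 macrophage markers, 7 had at most 3 counts in every library, and CD163, AIF1, TYROBP and FCGR3A had 0 counts throughout. The summed level of the 12 was 25.8 and 30.9 CPM in shCtrl and 10.3 and 11.6 CPM in shFOXK2, of which CD14 made up most, and ITGAM had 161 and 130 counts in shCtrl against 3 and 22 in shFOXK2. COL1A2, COL3A1, DCN and FAP, 4 of 9 fibroblast markers, had at most 3 counts in every library, and the sum of the 9 was 14.1 to 20.6 CPM over the 4 libraries, most of it from COL1A1, while PDGFRB had 127 and 87 counts in shCtrl against 2 and 8 in shFOXK2. The 5 endothelial markers summed to 10.6 and 7.72 CPM in shCtrl and 0.703 and 2.03 CPM in shFOXK2, with KDR and TEK at no more than 3 counts anywhere, and the 8 lymphocyte markers summed to 0.824 CPM or less. The 8 epithelial markers summed to 4240 to 5763 CPM, most of it from the keratins KRT8 and KRT18. In the same list CDH1 had 459 and 260 counts in shCtrl against 13 and 24 in shFOXK2, and CLDN3 and CLDN4 went from 29.9 to 7.64 CPM and from 253 to 125 CPM. Of the ovarian serous markers, PAX8 was present in every library (156 to 351 counts), MUC16 had 397 and 145 counts in shCtrl against 0 and 8 in shFOXK2, MSLN had 75 and 52 counts against 112 and 116, and WT1, ESR1 and SOX17 had at most 3 counts throughout. The part of the cells marked by any of these lists in the results was not tested. In RNA from a whole culture, fewer cells making a cytokine and less of its RNA in each cell cannot be told apart.

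The promoters and AU-rich elements of these genes were read from the reference genome, because they are the sequences through which such genes are commonly controlled. RefSeq windows (GRCh38.p14) from 250 bases before to 50 bases after the transcription start were found for 7 of the 10 genes, in 9 windows, and windows for LIF, CSF1 and CSF3 were not used here. The NF-κB consensus, searched on both strands, matched in 3 of the 7 genes (IL6, IL32 and IL23A). By window this was 3 of 9, against 5.91% of all 35116 windows. The AP-1 motif TGANTCA matched in 4 of the 9 windows, in IL1A, IL11 and IL23A (7.71% of all windows). The C/EBP motif TTNNGNAA, a loose pattern found in 36.8% of windows, matched in 5 of the 9, in IL6, IL1A, IL1B and IL32. The FOXK motif TGTTTAC (3.42% of windows) matched in 0 of the 7 genes, which says only that these letters are not in these windows. The 120 bases from −160 to −41 before the start are shown on the strand of each gene, with NF-κB and AP-1 matches in capitals, for 4 genes with such a match there. For each gene 1 window was considered, and in that of IL1A the AP-1 matches began at −12 and 39, outside these bases. The second IL1A window overlaps the first and holds the same AP-1 matches, at −105 and −55. They therefore count in 2 of the 4 windows with an AP-1 match.
IL6 (chr7:22727040-22727159, plus strand): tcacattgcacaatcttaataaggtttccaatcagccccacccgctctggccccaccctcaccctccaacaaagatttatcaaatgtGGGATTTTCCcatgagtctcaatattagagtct
IL32 (chr16:3065243-3065362, plus strand): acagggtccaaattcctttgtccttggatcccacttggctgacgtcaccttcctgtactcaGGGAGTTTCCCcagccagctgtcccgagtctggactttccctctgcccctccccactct
IL23A (chr12:56338724-56338843, plus strand): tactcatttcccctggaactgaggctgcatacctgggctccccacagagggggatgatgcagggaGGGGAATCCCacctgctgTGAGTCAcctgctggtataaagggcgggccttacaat
IL11 (chr19:55370504-55370623, minus strand): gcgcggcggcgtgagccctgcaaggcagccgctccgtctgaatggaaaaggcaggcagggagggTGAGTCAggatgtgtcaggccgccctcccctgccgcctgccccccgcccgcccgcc
The NF-κB matches began at −73 in IL6, −95 in IL23A and −99 in IL32, where a second match on the other strand overlapped it, and IL11 had an AP-1 match only.

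The AU-rich element was counted as the DNA word ATTTA in the 3′ UTR of the canonical GENCODE v44 transcript. IL32 had 0 copies in a 3′ UTR of 175 bases, and the other 9 genes had 4 to 9 copies. Relative to length, the density was highest in CSF2 (25.2 per kb of 3′ UTR), IL6 (14.1) and IL23A (13.1), and lowest, after IL32, in CSF1 (1.86) and LIF (2.19). The median over 19532 protein-coding genes was 1.5 per kb. The longer word ATTTATTTA, a stronger form of the element, was present in CSF2, IL11 and IL1B (7.08% of all protein-coding genes). The 30 bases of 3′ UTR with the most copies are shown for these 3 genes as DNA letters of the transcript strand on hg38, with each ATTTA in capitals.
CSF2 (chr5:132076081-132076110, plus strand): ATTTATTTATTTATTTATTTAagttcatat
IL1B (chr2:112829986-112830015, minus strand): ATTTATTTATTTAtttgtttgtttgtttta
IL11 (chr19:55365934-55365963, minus strand): ATTTATTTATTTAtttcagtactgggggcg
CSF2 held 5 overlapping copies in this stretch and IL1B and IL11 held 3 each.

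The 3 genes of the interleukin-6 family differed in how they behaved. IL6 (ENSG00000136244.12, chromosome 7, 22725884 to 22732002) encodes interleukin-6, which signals through the IL6 receptor and activates STAT3. It had 491 and 368 counts in shCtrl against 6 and 0 in shFOXK2. Both control libraries were high and close to each other, and the groups did not overlap. As CPM, IL6 went from 22.5 ± 0.647 to 0.211 ± 0.298 (SD, n = 2 each), or 0.939% of control. From the pooled counts this was 121-fold lower, with an exact 95% interval of 55.4 to 331 that covers counting error only. The fitted log2 fold change of −6.84 (SE 0.62) ran from −5.74 when shFOXK2 replicate 2 was left out to −11.74 when replicate 1 was, since replicate 2 held no IL6 reads.

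LIF (ENSG00000128342.5, chromosome 22, 30240453 to 30246759), leukemia inhibitory factor, uses the same signalling subunit IL6ST together with its own receptor LIFR. LIF had 1672 and 1342 counts in shCtrl against 1163 and 1030 in shFOXK2. Its CPM was 74.9 and 83.6 in shCtrl and 81.8 and 56.6 in shFOXK2, so the groups overlapped, with 1 shFOXK2 library between the control libraries and the other under both. The mean was 79.3 ± 6.12 CPM in shCtrl and 69.2 ± 17.8 CPM in shFOXK2 (SD, n = 2 each), which is 87.3% of control. The log2 fold change was −0.20 (SE 0.26). Under an offset on the A content of transcripts it was 0.15 and under one on GC content 0.10, settings that also moved the median of all genes up by 0.25 and 0.18, and it was 0.01 without shFOXK2 replicate 2.

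IL11 (ENSG00000095752.7, chromosome 19, 55364382 to 55370463), the third ligand of the family, was scarce. It had 58 and 44 counts in shCtrl against 45 and 14 in shFOXK2. As CPM this was 2.60 and 2.74 against 3.16 and 0.769, so the shFOXK2 libraries lay on both sides of the controls. The log2 fold change was −0.48 (SE 0.52). It turned to 0.21 once shFOXK2 replicate 2 was left out and was −1.81 when replicate 1 was, so its direction rests on single libraries.

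IL1A and IL1B encode interleukin-1α and interleukin-1β, which bind the same receptor and start inflammatory signalling in the receiving cell. They are neighbours on chromosome 2, from 112773925 to 112784493 and from 112829751 to 112836816, on the minus strand, with 45.3 kb between them. IL1A had 272 and 175 counts in shCtrl against 5 and 9 in shFOXK2. IL1B had 329 and 308 counts in shCtrl against 6 and 13 in shFOXK2. For both genes all control counts were high and all shFOXK2 counts were few but above 3. IL1A went from 11.5 ± 0.913 to 0.423 ± 0.101 CPM and was 27-fold lower by pooled counts (exact 95% interval 15.9 to 49.8). IL1B went from 17.0 ± 3.14 to 0.568 ± 0.207 CPM and was 28.3-fold lower (18 to 47.4). Their log2 fold changes of −4.73 (SE 0.42) and −4.85 (SE 0.42) were among the steadiest of the 10, at −5.04 to −4.55 and −5.34 to −4.58 when any 1 library was left out. The A-content offset moved IL1A to −5.57 and IL1B to −4.79. The transcript of IL1A, at 31.9% A, was the most A-rich of the 10, with that of IL6 next at 30.3%.

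**Figure D1:**
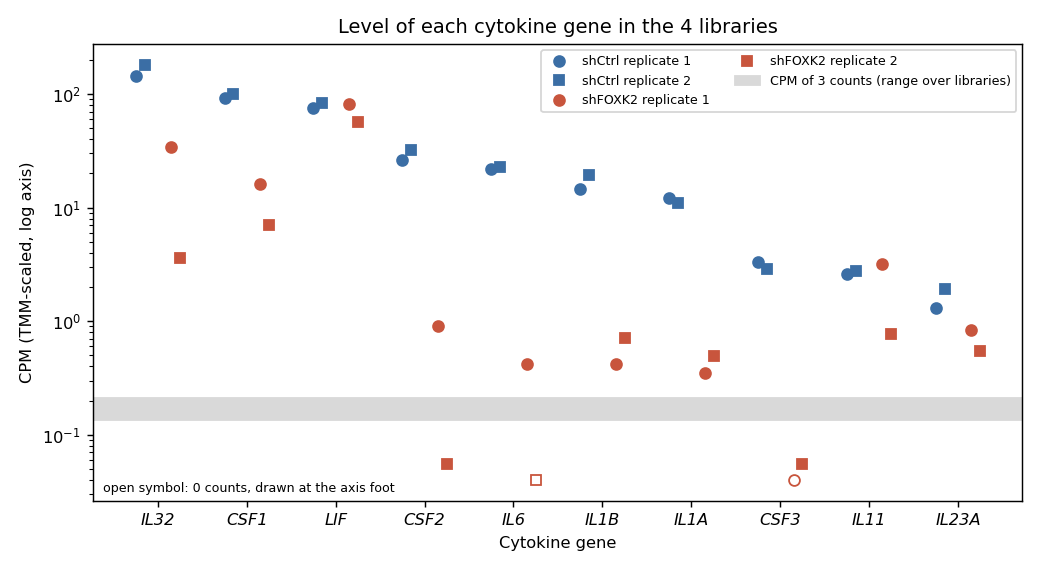
TMM-scaled CPM on a log axis for the 10 cytokine genes, ordered by their mean in shCtrl, with 1 point for each of the 2 shCtrl (blue) and 2 shFOXK2 (red) libraries. Open symbols are libraries with 0 counts and the grey band is the level of 3 counts (0.134 to 0.211 CPM). The groups overlap for LIF and IL11 and are apart for the other 8 genes.

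The colony-stimulating factors drive growth and activation of myeloid cells, CSF1 of macrophages, CSF2 of granulocytes and macrophages, and CSF3 of neutrophils. CSF2 (ENSG00000164400.6, chromosome 5, 132073789 to 132076170) had 591 and 512 counts in shCtrl against 13 and 1 in shFOXK2. It was high in both control libraries and near the floor in the second shFOXK2 library. CSF2 went from 29.2 ± 3.82 to 0.484 ± 0.607 CPM (SD, n = 2 each), 66.6-fold lower by pooled counts with an exact 95% interval of 39.5 to 122. Its fitted log2 fold change of −6.01 (SE 0.59) was −8.91 when shFOXK2 replicate 1 was left out and −5.02 when replicate 2 was.

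CSF3 (ENSG00000108342.13, chromosome 17, 40015361 to 40017813) had 74 and 46 counts in shCtrl against 0 and 1 in shFOXK2. Every shFOXK2 count was thus under the floor of 3, and the level there could not be measured at this depth. The pooled counts gave a ratio of 101 with an exact 95% interval of 17.9 to 4039. CSF1 (ENSG00000184371.14, chromosome 1, 109910242 to 109930992) was about as abundant as LIF in the controls and remained measurable in shFOXK2. Its counts were 2057 and 1593 in shCtrl and 231 and 129 in shFOXK2, with the groups far apart. CSF1 went from 95.7 ± 4.97 to 11.7 ± 6.47 CPM, or 12.2% of control. On the log2 scale this was −3.04 (SE 0.36), and it stayed between −3.78 and −2.59 when any 1 library was left out.

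IL32 (ENSG00000008517.19, chromosome 16, 3065297 to 3082192) encodes interleukin-32, a proinflammatory cytokine with no mouse ortholog. It was the most abundant of the 10 in shCtrl, with 3220 and 2912 counts, against 483 and 65 in shFOXK2. Both shFOXK2 libraries were under both controls, but they differed from each other by 9.51-fold in CPM (34.0 and 3.57). The means were 163 ± 26.2 CPM in shCtrl and 18.8 ± 21.5 CPM in shFOXK2 (SD, n = 2 each). The log2 fold change was −3.13 (SE 0.65). Leaving out shFOXK2 replicate 1 gave −5.53 and leaving out replicate 2 gave −2.29, so its size depended on 1 library.

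IL23A (ENSG00000110944.9, chromosome 12, 56334174 to 56340410) encodes the p19 subunit that pairs with the product of IL12B to form interleukin-23. It had 29 and 31 counts in shCtrl against 12 and 10 in shFOXK2, at 1.30 and 1.93 CPM against 0.844 and 0.549. The groups did not overlap but lay close together at these low counts. IL23A was 2.31-fold lower by pooled counts (exact 95% interval 1.39 to 3.95), with a log2 fold change of −1.21 (SE 0.47). IL12B, its partner, had 1 and 1 counts in shCtrl against 3 and 3 in shFOXK2, at the floor.

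Both shFOXK2 libraries lay under both shCtrl libraries for 8 of the 10 genes, against 36.2% of the 16417 genes tested. By the edgeR quasi-likelihood test 8 of 10 passed an adjusted p-value of 0.05, each lower in shFOXK2, where 48.4% of all tested genes passed in either direction, 22.7% of them being lower and 25.7% higher. All 10 genes passed the filter on low counts. Because the genes were chosen on this contrast, these counts are no test of them and nothing is read from the shares. IL23A was closest to the threshold and fell on the other side of it under 7 of the settings that left out no library, with the replicate number as a block among them (7 of 10 genes passed with the block), and when any library but shFOXK2 replicate 1 was left out.

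Summed over the 10 genes, cytokine transcripts took 0.0401% of counts in shCtrl replicate 1 (95% Wilson interval 0.0392 to 0.0409) and 0.0436% in shCtrl replicate 2 (0.0426 to 0.0446). In shFOXK2 they took 0.0137% (0.0132 to 0.0144) and 0.00717% (0.00679 to 0.00758). The summed level was 426 ± 44.5 CPM in shCtrl and 104 ± 48.2 CPM in shFOXK2 (SD, n = 2 each), or 24.4% of control. Without IL32, LIF and CSF1, the 3 genes with the most counts, the sum of the other 7 was 87.6 ± 6.86 CPM in shCtrl and 4.38 ± 2.46 CPM in shFOXK2, or 5.0% of control. What remained was mostly LIF, which made up 19.0% and 18.3% of these counts in shCtrl but 59.2% and 81.0% in shFOXK2. IL32 made up 36.6% and 39.7% in shCtrl and 24.6% and 5.11% in shFOXK2.

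**Figure D2:**
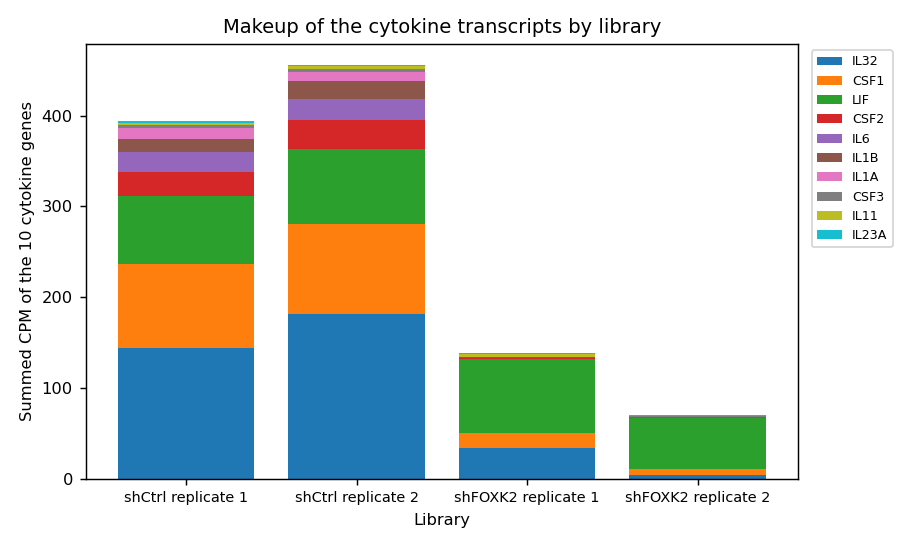
Stacked bars of TMM-scaled CPM of the 10 cytokine genes in each library, starting at 0. The bars reach 394 and 457 CPM in shCtrl and 138 and 69.9 CPM in shFOXK2, and LIF (green) is the largest piece of both shFOXK2 bars.

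For the 10 genes, libraries of one group also differed among themselves, and in shFOXK2 by more. Over all genes only another measure was taken, a chi-square on counts, which depends on count level and depth. The chi-square per gene was 36.4 between the shCtrl libraries and 24.8 between the shFOXK2 libraries, which cannot be set against the ratios below. Between the shCtrl libraries the 10 genes differed by ratios of 0.673 (IL23A) to 1.16 (CSF3) in CPM, replicate 1 over replicate 2. Between the shFOXK2 libraries the same ratio was 16.6 for CSF2, 9.51 for IL32, 4.11 for IL11, 2.29 for CSF1, 1.54 for IL23A, 1.44 for LIF, 0.711 for IL1A and 0.591 for IL1B. Replicate 1 was thus the higher for 6 of these 8 genes, and also for IL6, with 6 counts against 0. The exceptions among them were the interleukin-1 genes, and CSF3 had 0 and 1 counts. Some of these ratios rest on few counts, with 13 and 1 for CSF2, 5 and 9 for IL1A and 6 and 13 for IL1B. Counting error alone is wide there.

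**Figure D3:**
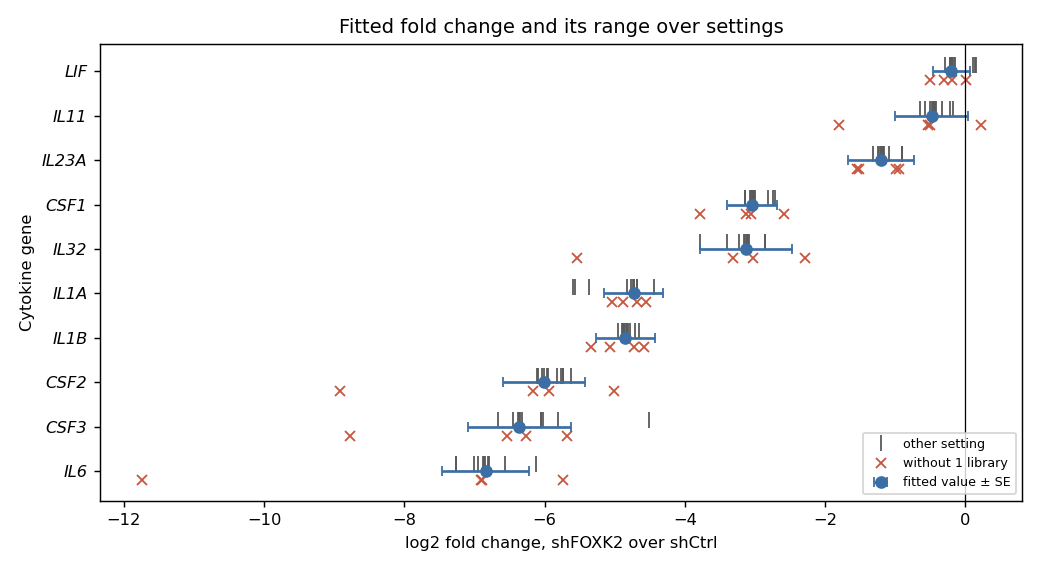
Fitted log2 fold change (shFOXK2 over shCtrl) of each cytokine gene with its SE as a bar (blue), the values under other settings (grey ticks) and the values with 1 library left out (red crosses). IL6 and CSF2, with 0 or 1 counts in shFOXK2 replicate 2, and CSF3, with 0 and 1 counts in the shFOXK2 libraries, spread furthest to the left, and values of LIF and IL11 lie on both sides of 0. Fitted values of genes at the floor depend on the prior count.

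Levels were compared between genes as CPM per kb of merged exons. In shCtrl the order was IL32 (50.8 ± 8.17), CSF2 (37.0 ± 4.85), LIF (20.5 ± 1.58), CSF1 (18.3 ± 0.949), IL1A (5.72 ± 0.452), IL1B (5.64 ± 1.04), IL6 (5.20 ± 0.15), CSF3 (1.39 ± 0.144), IL23A (1.37 ± 0.379) and IL11 (0.997 ± 0.0373), as mean ± SD of 2 libraries. LIF and CSF1, the trio of IL1A, IL1B and IL6, and the neighbours among CSF3, IL23A and IL11 were within their combined SDs of each other. In shFOXK2 the order was headed by LIF (17.9 ± 4.60), followed by IL32 (5.85 ± 6.70) and CSF1 (2.23 ± 1.24). CSF2 went from the second place to 0.615 ± 0.771 CPM per kb, within the SD of IL11 (0.734 ± 0.632) and IL23A (0.591 ± 0.177). IL1A, IL1B, IL6 and CSF3 were at 0.21 or less. Dividing by the longest transcript instead raised IL32 to 118 and IL1B to 10.5 CPM per kb in shCtrl and put CSF1 (24.0) above LIF (20.5), so the order of these neighbours depends on the gene length used.

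IL6 and LIF were taken as reference points for likeness of pattern. Over the 4 libraries and 16417 genes, the pattern closest to IL6 (Euclidean distance of log2 CPM centred on shCtrl) was that of another of the 10, CSF2, at 0.60. Next were NEURL3 (0.84), with 572 and 403 counts in shCtrl against 8 and 2 in shFOXK2, and CXCL8 (1.11), the gene for the neutrophil chemokine interleukin-8, with 2984 and 1263 counts in shCtrl against 20 and 4 in shFOXK2. Closest to LIF were URB1 (0.03), RMDN3 (0.04) and METTL7B (0.04). With 4 libraries such distances describe little more than the difference between groups and the shFOXK2 spread.

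Position was examined next, since the rule did not use it. The nearest annotated protein-coding genes on either side of the 10 were 18 other genes, of which 10 were expressed enough to test. Of the 10 tested neighbours, 2 were lower (P4HA2 and STAT2), 2 were higher (CKAP2L and MMP25) and 6 did not pass, against 22.7% lower and 25.7% higher over all genes. Both shFOXK2 libraries lay under both shCtrl libraries for 7 of the 10 and above both for 2. Over all tested genes the share lying under was 36.2%. The median log2 fold change of the neighbours was −0.51, beside 0.04 for all tested genes. MMP25, 4.57 kb from IL32, rose by 1.88 on the log2 scale (SE 0.43, adjusted p-value 0.00276 by edgeR). CKAP2L, 9.26 kb from IL1A, rose by 2.52 (SE 0.31, adjusted p-value 3.82e-05). STAT2, a transcription factor of interferon signalling 1.19 kb from IL23A, fell by 1.71 (SE 0.25, adjusted p-value 0.000151). MED24 and PSMD3, which flank CSF3, had log2 fold changes of −0.03 and −0.37 (adjusted p-values 0.936 and 0.224), and IL3, beside CSF2, had a single count in all. Antisense or overlapping transcripts shared exon bases with IL6 (IL6-AS1 and STEAP1B), LIF (LIF-AS1 and LIF-AS2) and IL32 (RNU1-125P), and the strand setting of the counting was not stated. IL6-AS1, which shared 428 exon bases with IL6, and LIF-AS2 were not found among the counted symbols, so their reads could not be checked. STEAP1B had at most 2 counts and RNU1-125P 0 in each library. LIF-AS1 had 4 and 4 counts in shCtrl against 11 and 23 in shFOXK2, which is few beside the 1030 or more of LIF.

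The rest of the cytokine system was followed through 5 lists of genes. Among 46 other cytokine ligands, 34 were too low to test, 15 of which had 0 counts in every library. Of the 12 tested, 4 were lower, 2 were higher and 6 did not pass, against 22.7% lower and 25.7% higher over all genes. EBI3, IL34 and THPO passed the filter through their shCtrl counts, so this count is no measure of direction. Where at least 10 counts were required in every library, these 3 were not tested. Of the 8 ligands left, 1 was then lower and 2 were higher. The median log2 fold change was −0.16, beside 0.04 for all tested genes. EBI3, a subunit shared by the interleukin-27 and interleukin-35 dimers, had 204 and 153 counts in shCtrl against 13 and 6 in shFOXK2 (log2 fold change −3.95, SE 0.46, adjusted p-value 2.74e-05). IL34, the second ligand of the CSF1 receptor, fell with a log2 fold change of −2.78 (adjusted p-value 0.00098). It had 46 and 42 counts in shCtrl against 2 and 9 in shFOXK2. THPO, the platelet growth factor thrombopoietin, fell likewise (−3.32, 0.00159). THPO had 17 and 20 counts in shCtrl against 1 and 2 in shFOXK2, under the floor of 3. CTF1, a cardiotrophin of the interleukin-6 family, also fell (−1.45, 0.00381). Rising were KITLG, the ligand of the KIT receptor (1.90, 0.00125), and CLCF1, another cytokine of the interleukin-6 family (1.02, 0.00685), which lost its call without shFOXK2 replicate 1 (adjusted p-value 0.0661). KITLG had 166 and 48 counts in the shCtrl libraries and passed under every setting run, at 1.05 with the A-content offset, 0.96 with the GC-content offset, 2.68 without shCtrl replicate 1 and 1.33 without shCtrl replicate 2. IL18, the one abundant relative of IL1B, had 85.6 ± 6.28 CPM in shCtrl and 56.1 ± 17.8 CPM in shFOXK2 (log2 fold change −0.61, adjusted p-value 0.0789). IL1RN, the antagonist of the interleukin-1 receptor, had 2 counts or fewer in each library.

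Of 14 receptor genes, 10 were tested, with 3 lower, 1 higher and 6 not past the threshold (median log2 fold change 0.46). The shares over all genes were 22.7% lower and 25.7% higher. OSMR, the oncostatin M receptor subunit that partners IL6ST, fell from 484 ± 59.7 to 73.4 ± 3.36 CPM (log2 fold change −2.72, SE 0.24, adjusted p-value 3.89e-06). CSF2RA, the receptor subunit for the product of CSF2, fell with a log2 fold change of −1.70 (adjusted p-value 0.00103), and IL1R1, the signalling receptor of interleukin-1, with −1.42 (0.00583). IL1R2, the decoy receptor that binds interleukin-1 without signalling, had 4 and 6 counts in shCtrl against 12 and 34 in shFOXK2 (2.36, 0.00519), and did not pass without shCtrl replicate 1 (0.0754) or without shFOXK2 replicate 2 (0.102). LIFR, IL6ST and IL6R, which receive LIF and interleukin-6, had log2 fold changes of 0.86, 0.60 and 0.58 with adjusted p-values of 0.095, 0.151 and 0.073. IL6ST had 2083 and 637 counts in the shCtrl libraries, and its value followed them, at 1.31 without shCtrl replicate 1, where it passed (adjusted p-value 0.000489), and 0.04 without shCtrl replicate 2. The direction of IL6ST turned under the composition offsets, to −0.30 with that on A content. IL6R passed with either offset, at 0.91 (adjusted p-value 0.00341) with that on A content. LIFR had 1303 and 296 counts in the shCtrl libraries and likewise passed without shCtrl replicate 1 (1.89, adjusted p-value 3.25e-06) but not without shCtrl replicate 2 (0.19, 0.651). LIFR also passed with the replicate block (1.06, 0.0094), with the A-content offset and block (0.68, 0.0157), without shFOXK2 replicate 1 (1.06, 0.00901) and with no filter (0.76, 0.0314), and was at 0.16 (0.689) with the GC-content offset. CSF1R had 4 to 12 counts in each library (1.08, 0.124).

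**Figure D4:**
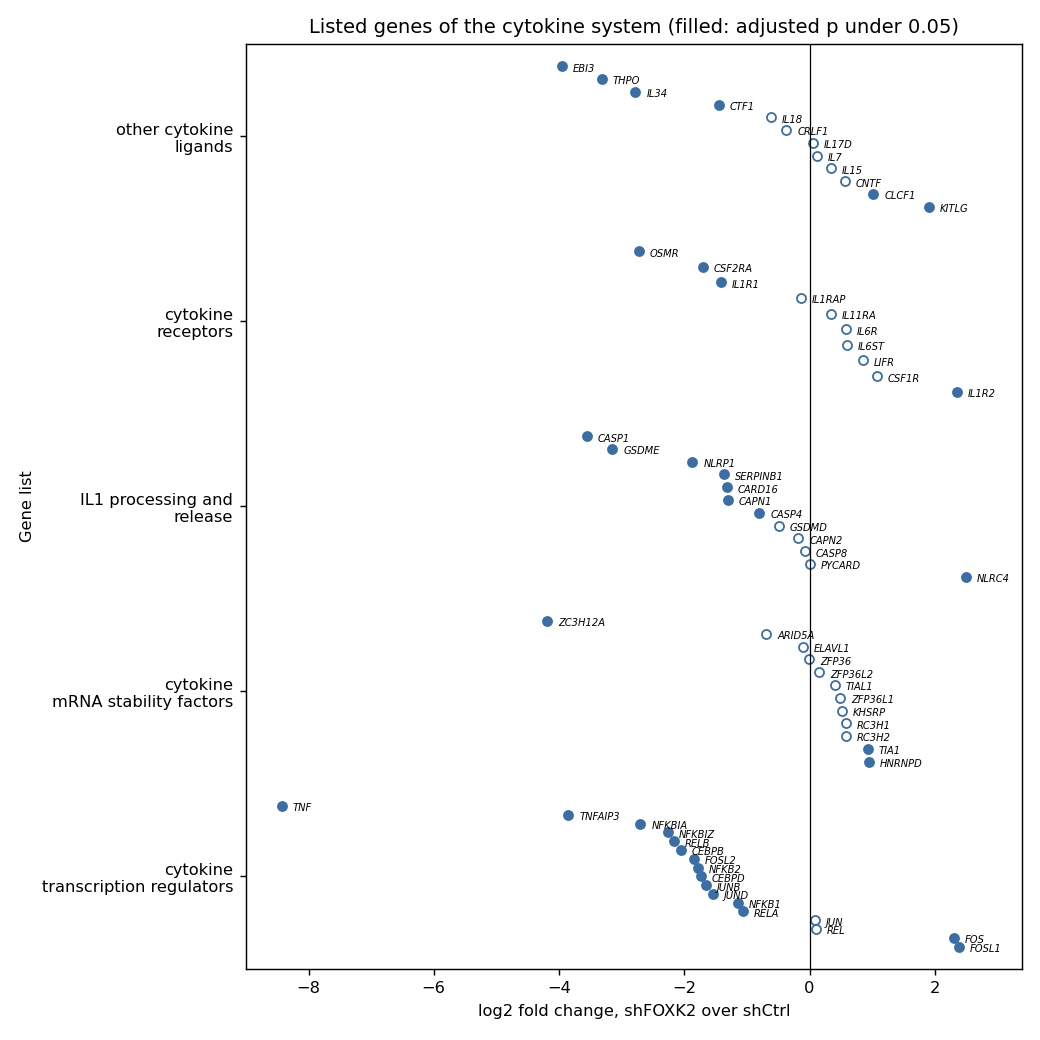
Log2 fold change (shFOXK2 over shCtrl) of every tested gene in 5 lists of the cytokine system, sorted within each list, with filled points past an adjusted p-value of 0.05. The transcription regulators lie mostly to the left of 0 (13 of 17 lower), while 11 of the 12 mRNA stability factors lie between −0.69 and 0.95 and ZC3H12A is at −4.19. TNF, with 0 counts in both shFOXK2 libraries, is at a fitted value that is no bound.

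Interleukin-1 is made as a precursor and is cut and released by enzymes of the inflammasome and by calpain. Of 16 genes of this process, with sensors, an adaptor and inhibitors among them, 12 were tested. Of these, 7 were lower, 1 was higher and 4 did not pass (median log2 fold change −1.05). The shares over all genes were 22.7% lower and 25.7% higher. CASP1, the protease that matures interleukin-1β, had 103 and 53 counts in shCtrl against 2 and 9 in shFOXK2 (log2 fold change −3.55, SE 0.53, adjusted p-value 0.000148). GSDME, a pore-forming gasdermin, fell with −3.15 (3.24e-06), NLRP1, an inflammasome sensor, with −1.87 (0.000588), and SERPINB1, an inhibitor of inflammatory proteases, with −1.36 (0.000734). NLRC4, another sensor, had 5 and 2 counts in shCtrl against 17 and 17 in shFOXK2 (2.5, 0.00308) and did not pass without shCtrl replicate 2 (0.0615). PYCARD, the adaptor of the inflammasome, and GSDMD, the pore through which interleukin-1β leaves the cell, had log2 fold changes of 0.00 and −0.49 (adjusted p-values 0.997 and 0.121). Of the calpain genes, CAPN1 was at −1.30 and CAPN2 at −0.18 (adjusted p-values 0.000617 and 0.575 by edgeR).

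The factors that bind AU-rich or stem-loop elements of cytokine transcripts were measured next, in view of the elements shown above. Of 12 tested, 1 was lower, 2 were higher and 9 did not pass (median log2 fold change 0.45), against 22.7% lower and 25.7% higher over all genes. The lower one, ZC3H12A, encodes Regnase-1, an endonuclease known for cutting the IL6 transcript, and fell from 151 ± 10.1 to 8.27 ± 1.43 CPM (log2 fold change −4.19, SE 0.28, adjusted p-value 4.84e-07). ZFP36, encoding tristetraprolin, the decay factor of the CSF2 and TNF messages, was at 22.8 ± 1.35 CPM in shCtrl and 22.7 ± 2.5 CPM in shFOXK2 (log2 fold change −0.01, adjusted p-value 0.989). HNRNPD, encoding the AU-binding protein AUF1, rose with a log2 fold change of 0.95 (0.00449), but not without shFOXK2 replicate 2 (0.0504). TIA1, a translational repressor that binds AU-rich messages, had 1285 and 400 counts in shCtrl against 1008 and 1570 in shFOXK2 (0.93, 0.0367). TIA1 was at 1.62 without shCtrl replicate 1 and 0.37 without shCtrl replicate 2, where it did not pass (adjusted p-value 0.336). It also did not pass without shFOXK2 replicate 2 (0.0904), with library size alone (0.0822), or with the A-content (0.0612) or GC-content offset (0.675).

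The list in which most genes passed held transcription factors known to act on these promoters, regulators of NF-κB, and TNF. Of 17 tested, 13 were lower, 2 were higher and 2 did not pass, against 22.7% lower and 25.7% higher over all genes, and the median log2 fold change was −1.73. TNF, itself a cytokine that activates NF-κB, had 58 and 36 counts in shCtrl against 0 and 0 in shFOXK2. Allowing 3 counts over the shFOXK2 group, this was at least 26.5-fold lower (adjusted p-value 3.63e-05). TNFAIP3 and NFKBIA, inhibitors of NF-κB that are also its targets, fell with log2 fold changes of −3.85 (4.4e-05) and −2.70 (7.58e-06). NFKBIZ, a nuclear cofactor needed for IL6 induction, fell with −2.26 (3.89e-05), and the C/EBP factors CEBPB and CEBPD with −2.06 (7.98e-05) and −1.73 (0.000135). Of the AP-1 genes, FOSL2, JUNB and JUND were lower, FOSL1 (2.39, 7.91e-05) and FOS (2.30, 0.000136) were higher, and JUN did not pass (0.08, 0.847). FOSL1 had 2897 and 2728 counts in shCtrl against 14988 and 9343 in shFOXK2. The 5 lists were written with earlier results of these libraries known, and differences between lists were not tested.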

How the data were processed

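RNA was measured in 4 libraries of OVCAR5 cells, 2 for each hairpin. The authors selected poly(A) RNA, sequenced single-end reads, aligned them to hg38 (GRCh38) with STAR 2.5.2 and counted with HTSeq, and the deposited values are raw counts per gene symbol. The annotation and strand setting of the counting are not given in the sources used here, so overlapping genes are uncertain. The cytokine genes and the gene lists were chosen with earlier results of these data known. Groups and replicate numbers came from the sample titles, per the labels. Whether replicates came from separate transductions is not given, so p-values measure the spread between these libraries.

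Counts of all genes were filtered (filterByExpr), scaled by TMM and compared by the 2-sided quasi-likelihood F test of edgeR 4.0.16 (R 4.3.3), with Benjamini-Hochberg adjustment over 16417 genes and a threshold of 0.05. SE is the absolute log2 fold change over the square root of F. With 2 libraries a group, no permutation of labels can reach 0.05. Pooled count ratios have exact 95% binomial intervals and shares Wilson intervals, and these and the floor of 3 counts cover counting error only. On simulated counts with 200 genes changed and the same dispersion for every gene, 89% were recovered. Of the calls, 2.73% were false among 15914 genes tested. In the data 48.4% of tested genes passed, so these shares do not give the false share of the calls made here.

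Named genes were the 10 cytokine genes, FOXK2, up to 4 called genes in each direction of each list, fixed receptors and regulators, and the 3 nearest patterns to IL6 and LIF. Others named beside these, the genomic neighbours among them, were taken up after values had been seen. Positions, lengths and composition came from GENCODE v44, with 65.7% of 56655 symbols matched. Alternatives were size factors and the Wald test of DESeq2 1.42.0, the exact test of edgeR, library size alone, no filter, at least 10 counts in every library, lowess offsets (span 0.2) on A or GC content, the replicate block, and each library left out. With a library left out, the lone library of its group is assumed to vary like the others.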

Additional observations from a re-analysis of the deposited data

How the results depend on the processing

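Of the 10 cytokine genes, 7 passed in each of the 4 fits with composition offsets or the replicate block, with library size alone and with DESeq2, and 8 with the exact test, DESeq2 size factors or no filter. The gene that lost its call was IL23A. With at least 10 counts in every library, 3 passed, because IL6, IL1A, IL1B, CSF2 and CSF3 then could not be tested. That filter gave 3 calls among 8 other ligands, 1 lower and 2 higher. It gave 5 among 9 genes of interleukin-1 processing and 3 among 8 receptors, each lower. IL1R2 and NLRC4, the higher genes of those lists, were not tested there. Leaving out 1 library gave 7 to 9 cytokine genes, the ninth being IL11 without shFOXK2 replicate 1. The count for mRNA stability factors was 7 with the A-content offset and the replicate block together, and 1 (without shFOXK2 replicate 2) to 5 (without shCtrl replicate 1) with a library left out. The cause was not tested. Without IL32, LIF and CSF1, a choice made after seeing the data, the sum of the genes was 5.0% of control in place of 24.4%. IL6ST reversed to −0.30 with the A-content offset, −0.21 with the GC-content offset and −0.26 with the A-content offset and block. ZFP36, at −0.01, reversed to 0.033 with library size alone, 0.041 with at least 10 counts, 0.35 with the A-content offset, 0.30 with the GC-content offset, 0.35 with the A-content offset and block, and lay between −0.15 and 0.072 with a library left out.

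Same-numbered libraries did not deviate together (correlation −0.113), so the numbers were not used as pairs. With the replicate block 7270 genes passed in place of 7940, and with the numbers crossed, chosen after seeing the data, 8350. Depth limits IL6, CSF2 and CSF3, whose level in 1 or both shFOXK2 libraries is at or under 3 counts.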
